A study of Homo sapiens with 72 samples.

Results

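The response of human cells without G3BP1 and G3BP2 to sodium arsenite was measured by RNA-seq in 4 libraries, of 72 samples in the series. The cells were U2OS, an osteosarcoma line, in which both genes had been knocked out. A group of 2 libraries came from untreated knockout cells, and a group of 2 from knockout cells given 200 uM sodium arsenite for 2 h. Both groups carried the knockout and neither was transfected. Whether the knockout line is 1 clone is not given in the sources used here. The members are all 61541 gene rows of the authors' comparison of the 2 groups, with the 4 summary lines of read counting left out. Arsenite responses of knockout cells that had been transfected for 24 h with wild-type G3BP1 or with G3BP1 lacking its NTF2 domain, each also with 2 untreated and 2 arsenite libraries, were used for comparison.

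Arsenite binds thiol groups of proteins, which damages folded proteins and disturbs redox balance. Cells answer with several transcription programs at once: HSF1 switches on chaperones, MTF1 switches on metallothioneins, NRF2 switches on antioxidant genes, and MAP kinases switch on the immediate-early genes, whose transcription needs no new protein. Arsenite also halts most translation through phosphorylation of eIF2alpha, which favours translation of ATF4, and untranslated mRNAs gather with G3BP1 and G3BP2 in stress granules. The proteins G3BP1 and G3BP2 form the core of these granules, so the cells studied here met arsenite without them.

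Levels are given below as normalised reads in each library, which were worked out exactly from the authors' base means. A log2 ratio is that of the 2 group means, arsenite over untreated. A gene is called where the adjusted p in the authors' deposited table is under 0.05. The libraries, written a and b within a group, could not be matched to the replicate numbers of the labels. Where nothing says that the 2 libraries of a group came from separate cultures, p-values measure only the spread between these libraries. Reads are relative to the other genes of a library, so a change of total RNA per cell or of cell number cannot be seen in these data.

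The untreated libraries held 12094188 and 10793184 reads in genes, and the arsenite libraries 12747976 and 12633764. Reads were found for 26932 and 26721 genes without and 27797 and 27732 genes with arsenite. Library a differed from library b by an SD of 0.164 on the log2 scale in the untreated group and 0.163 in the arsenite group, over the 10953 genes whose base mean was 100 or more. Of 14 mesenchymal and osteoblast markers, 11 were tested, with VIM at 15218 and 15770 normalised reads in untreated and 11976 and 11328 in arsenite libraries. TWIST1 had no read, COL1A2 had 3.94 and 9.93 normalised reads, and BGLAP 4.93 and 3.31. The source label calls the cells epithelial, yet CDH1 had 3.94 and 4.41 normalised reads and KRT5 none in untreated cells. Of 9 epithelial markers 2 were tested and both were called lower, CLDN4 from 1050 and 1176 to 839 and 881 and EPCAM from 113 and 110 to 43.4 and 66.2. The 8 haematopoietic markers summed to between 15.8 and 20.7 normalised reads per library, with CD3E, HBG1 and GATA1 at 0, and the 8 neural markers, with SOX10 at 0, to between 883 and 972, mostly NEFL. Of the 11 tested mesenchymal markers, 7 were called lower with arsenite (63.6%) and none higher, against 10.9% and 8.56% of all tested genes. The sum over all 14 listed markers moved from 54875 and 54059 to 38865 and 38381 normalised reads. Among the 7 were SPARC, from 20778 and 19932 to 10696 and 11066, and VIM. Their part in the other results was not tested.

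Transcripts of both targeted genes were still counted. G3BP1 had 3454 and 3474 normalised reads in untreated and 2862 and 2994 in arsenite libraries. Both arsenite libraries lay below both untreated ones, as they did in every gene called lower. In the authors' deposited table this gave a fold change of -0.24 on the log2 scale, with SE 0.07 and an adjusted p of 0.00477. G3BP2 had 1518 and 1485 reads without and 1578 and 1584 with arsenite, and was not called in the authors' deposited table (log2 fold change 0.07, adjusted p 0.682). Reads of poly-A RNA do not show whether protein was made. The knockout is therefore taken from the labels.

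Arsenite raised 1326 genes and lowered 1685 of the 15497 genes that had an adjusted p. This is 8.56% of tested genes called higher and 10.9% called lower. Counts of called genes given below stand beside these shares. The remaining 46044 rows had no adjusted p. In each called gene both arsenite libraries lay on the same side of both untreated libraries. Among all tested genes this separation was seen upward in 31.4% and downward in 32.5%. The median log2 ratio was 0.00 over tested genes, 0.54 over genes called higher and -0.57 over genes called lower. Rises reached much farther than falls. A log2 ratio of at least 2 was reached by 117 called genes and of at least 4 by 31, while only 6 called genes fell to -2 or below. The genes called higher held 19.7% and 19.2% of gene reads without and 28.1% and 28.5% with arsenite, and those called lower went from 27.6% in both untreated libraries to 19.2% and 19.1%.

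**Figure D1:**
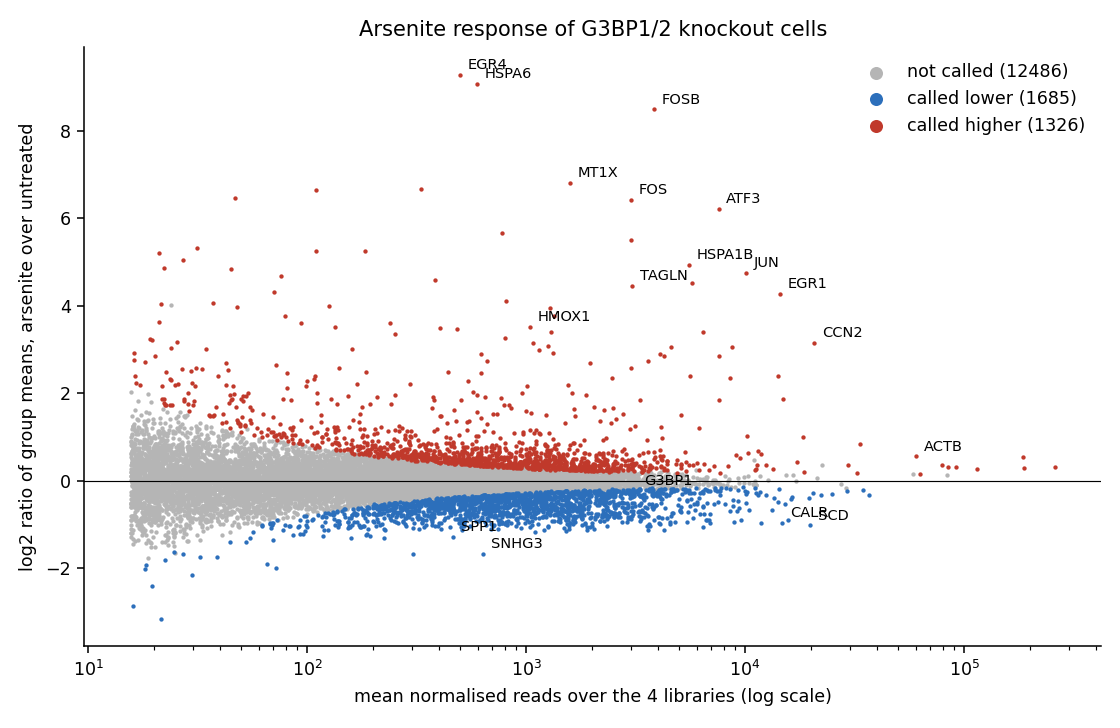
Tested genes by mean normalised reads over the 4 libraries on a log axis (horizontal) and log2 ratio of group means, arsenite over untreated (vertical), 1 point per gene, with the 1326 genes called higher in red and the 1685 called lower in blue. The rises extend past 8 on the log2 scale, while genes called lower lie mostly between 0 and -2.

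The AP-1 factors, basic leucine zipper proteins that pair to bind DNA in response to kinase signals, gave some of the highest rises. Of 11 listed, 10 were tested and 9 were called higher, with none lower and a median log2 ratio of 2.63. FOSB went from 22.7 and 19.9 to 7128 and 8162 normalised reads, a 360-fold rise, and the authors' deposited table lists 7.64 on the log2 scale, with SE 0.17 and an adjusted p of 0. FOS went from 65.1 and 75.0 to 5941 and 5980. ATF3, which is also a target of ATF4, went from 186 and 216 to 14460 and 15360. In these genes the lowest arsenite library lay more than an order of magnitude above the highest untreated library. JUN, the main partner of FOS proteins, already stood at 743 and 705 and reached 20682 and 18256. FOSL1, from 270 and 261 to 2237 and 2253, and JUNB, from 520 and 601 to 2666 and 2407, followed. JUND, known for its steady expression, moved least among the JUN genes, with a log2 ratio of 0.57. BATF3 was tested and not called (log2 ratio -0.43, adjusted p 0.658 in the authors' deposited table).

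Of 20 other immediate-early genes, all were tested and 19 were called higher, with a median log2 ratio of 2.37. The zinc-finger factors of the EGR family were among the top of them. EGR1 went from 1430 and 1396 to 28059 and 26628 normalised reads and EGR2 from 108 and 152 to 6038 and 5772. EGR4 had 1 and 2 whole reads in untreated and 1143 and 957 in arsenite libraries. The orphan nuclear receptor NR4A3 went from 3.94 and 8.83 to 629 and 679 normalised reads, and its relative NR4A1 had a log2 ratio of 3.41. SRF, the factor that binds the serum response element in many of these genes, went from 817 and 925 to 5255 and 5078. MYC had a log2 ratio of 1.36. IER3 rose least among the called members, with 0.36, and GEM, at 0.51, missed the threshold with an adjusted p of 0.265 in the authors' deposited table.

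Negative regulators of kinase signalling were listed separately. Of 10 dual-specificity phosphatases, which remove phosphate from MAP kinases, 8 were tested and 6 called higher, with a median log2 ratio of 1.89. DUSP1 went from 157 and 154 to 2626 and 2205 normalised reads. DUSP2 rose from 208 and 227 to 2062 and 1776. DUSP5 rose from 152 and 193 to 1139 and 1162. DUSP7, at -0.28, and DUSP14, at 0.03, were not called. ZFP36, whose protein (tristetraprolin) promotes decay of AU-rich mRNAs such as those of immediate-early genes, went from 72.9 and 58.5 to 741 and 746. Of 11 AU-rich element binding protein genes tested, 2 were called higher and 2 lower, with HNRNPD at a log2 ratio of -0.22 and KHSRP at -0.24. Among 12 tested KLF factors 5 were called higher, led by KLF2 (1.78), KLF15 (1.72) and KLF7 (1.31). Among 10 tested EGFR ligands and ERK feedback genes, 3 were called higher and 1 lower, with ERRFI1, an inhibitor of the EGF receptor, at 1.14 and PHLDA1 at -0.66, and the median was 0.17.

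**Figure D2:**
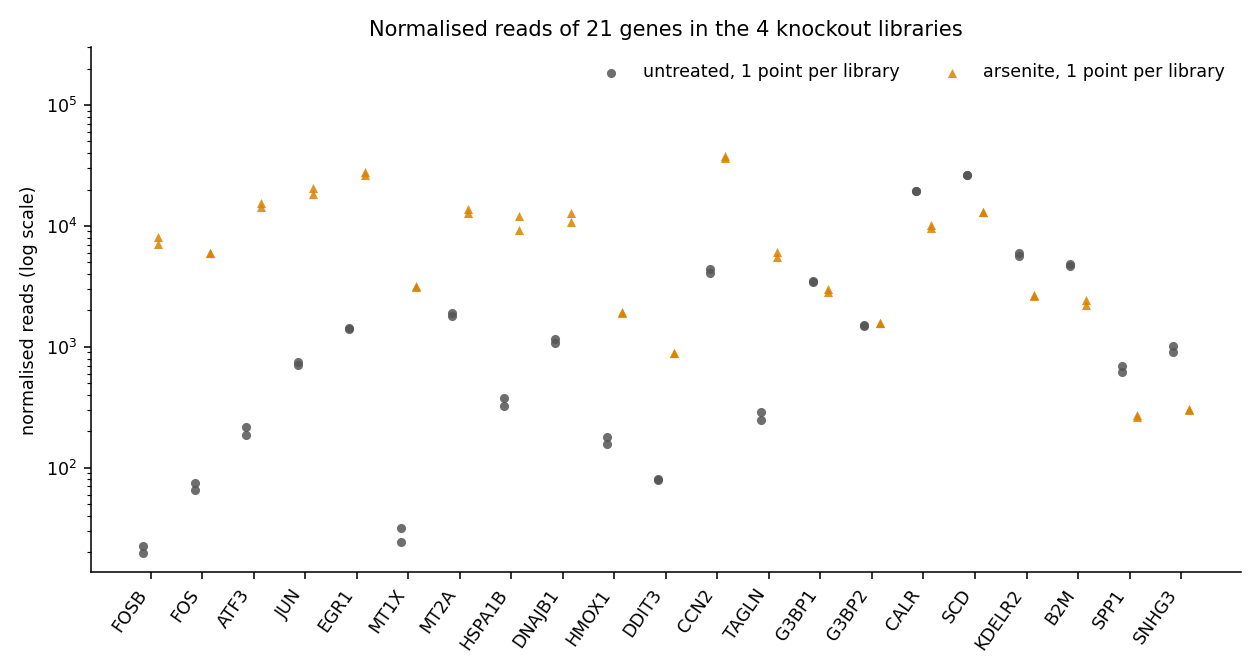
Normalised reads on a log axis (vertical) of 21 genes (horizontal) in the 2 untreated libraries (grey circles) and the 2 arsenite libraries (orange triangles) of knockout cells, 1 point per library. From FOSB to TAGLN the arsenite points lie above the untreated ones, G3BP2 shows nearly the same level in all 4 libraries, and from CALR to SNHG3 the arsenite points lie below.

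All 5 tested genes of the metallothionein list were called higher, with a median log2 ratio of 3.06. Metallothioneins are small cysteine-rich proteins that bind zinc, cadmium and arsenite, and SLC30A1 is a zinc exporter that MTF1 switches on with them. MT1X went from 31.5 and 24.3 to 3104 and 3192 normalised reads, a 113-fold rise, and MT1G from 29.6 and 30.9 to 1509 and 1536. MT1E and MT2A were far higher before treatment, at 955 and 1006 and at 1815 and 1889, and reached 8523 and 7790 and 13906 and 12714. SLC30A1 went from 1075 and 1001 to 7425 and 7443. The genes with the lowest starting level had the largest ratios. Reads of these closely similar genes may be split between copies. Another 8 listed genes had no adjusted p.

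MT1X lies on chromosome 16 of GRCh38.p14. The 250 bases before its annotated start in RefSeq (chr16:56682220-56682469, plus strand) are shown because it had the highest rise of the list and because metal response elements (MREs) are the sites that MTF1 binds. Capitals mark the core letters TGCACNC or TGCGCNC, searched on both strands.
MT1X: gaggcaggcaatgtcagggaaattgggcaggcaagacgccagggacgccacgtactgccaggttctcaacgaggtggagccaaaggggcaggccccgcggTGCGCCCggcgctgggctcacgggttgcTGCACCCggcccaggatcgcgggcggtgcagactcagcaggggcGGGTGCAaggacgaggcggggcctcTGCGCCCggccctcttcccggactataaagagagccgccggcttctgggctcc
The window held 4 matches. At least 1 match was found in 29.3% of the 27305 promoters of 300 bases in the RefSeq table, so the letters alone are common. Only 6 of the 13 listed genes had a promoter there, and a share over the list is therefore not given.

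Cytosolic chaperones of the HSP70 and HSP110 families, which refold damaged proteins, rose in 6 of 8 tested genes, with a median log2 ratio of 1.81 and none lower. HSPA1B went from 326.3 and 375.1 to 12166 and 9300 normalised reads and HSPA1A from 442 and 520 to 12063 and 9900. These genes are near-identical, so reads may be split between them. HSPH1, an HSP110 and exchange factor for HSP70, went from 2681 and 2622 to 7770 and 7311. The constitutive HSPA8 rose from 8584 and 9093 to 14082 and 14051, while HSPA4 and HSPA14 were not called. HSPA6, a strictly inducible HSP70, had 0 and 4 whole reads in untreated and 1555 and 945 in arsenite libraries. The authors' deposited table put HSPA6 at 0.92 on the log2 scale, with SE 0.27 and an adjusted p of 0.00574, which is 8.15 below the log2 ratio of its group means, 9.07. This gap was at least 3 in 7 called genes, and HSPA6 had the widest.

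The 250 bases before the annotated start of HSPA1B (GRCh38.p14, chr6:31827488-31827737, plus strand, RefSeq) are shown because it rose most among the tested HSP70 genes with reads in both untreated libraries. Capitals mark GAANNTTC, a pair of inverted units of the heat shock element that HSF1 binds, searched on both strands.
HSPA1B: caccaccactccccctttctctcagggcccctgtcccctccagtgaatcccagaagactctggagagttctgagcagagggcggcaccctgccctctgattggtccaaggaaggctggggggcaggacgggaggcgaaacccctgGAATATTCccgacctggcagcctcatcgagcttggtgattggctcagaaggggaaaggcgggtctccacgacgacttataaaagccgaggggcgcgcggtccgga
The pair was found in 5 of the 9 HSP70 and HSP110 promoters in the table and in 7 of 26 promoters of the other HSF1 list. It was found in 6.87% of all 27305 and in 4.72% of promoters of tested genes. A stricter search for 3 alternating units found no match in the printed bases. That search matched 2 of the 9 and 4 of the 26 promoters, against 0.487% of all. Of the 218 genes called higher with a deposited log2 fold change of at least 1, only 132 had a promoter in the table, so a comparison of motifs over them is void.

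Of 32 other chaperones and co-chaperones linked to HSF1, all tested, 20 were called higher and none lower, with a median log2 ratio of 0.53. The HSP40 proteins DNAJB1 and DNAJA4, which hand clients to HSP70, led them. DNAJB1 went from 1068 and 1158 to 12747 and 10729 normalised reads and DNAJA4 from 159 and 140 to 1514 and 1371. BAG3, a co-chaperone for autophagy, had a log2 ratio of 1.48, the mitochondrial chaperonin partner HSPE1 1.54, and HSP90AA1, the inducible HSP90, 1.01. The HSF1 gene itself, at -0.08, was not called.

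The antioxidant genes of the NRF2 list did not move as 1 group. Of 35 listed, 32 were tested, 6 were called higher and 5 lower, with a median log2 ratio of -0.02. HMOX1, the haem-degrading enzyme, went from 179 and 157 to 1931 and 1898 normalised reads. MAFG, a small MAF partner of NRF2, had a log2 ratio of 0.86, SQSTM1, an autophagy receptor, 0.45, and GCLM, a subunit of the enzyme that makes a glutathione precursor, 0.47. Commonly used NRF2 reporters were not called: NQO1 had 383 and 409 reads without and 347 and 313 with arsenite, TXNRD1 1680 and 1706 without and 1740 and 1678 with. SRXN1 stood between 20.7 and 45.2 in all 4 libraries. Thioredoxin (TXN, -0.49), the cystine transporter SLC7A11 (-0.41) and EPHX1 (-0.86) were called lower.

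Of 32 ATF4 genes of the integrated stress response, 30 were tested, 10 called higher and 4 lower, with a median log2 ratio of 0.15. DDIT3, which encodes the factor CHOP, went from 78.9 and 80.5 to 888 and 887 normalised reads. PPP1R15A, the stress-induced subunit that reverses eIF2alpha phosphorylation, went from 320 and 293 to 2394 and 2270. ATF4 itself went from 1517 and 1564 to 2885 and 2954. CHAC1 had a log2 ratio of 1.85 and ASNS of 1.04. TRIB3, with 252 and 234 reads without and 243 and 253 with arsenite, was not called, and the amino acid transporter SLC7A5 fell from 5775 and 5906 to 3636 and 3345.

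Among 11 tested YAP targets, 6 were called higher (54.5%) and 3 lower (27.3%), against 8.56% and 10.9% of all tested genes. CCN2, a secreted matrix protein, went from 4363 and 4056 to 37829 and 36495 normalised reads. ANKRD1, a nuclear cofactor, rose from 1894 and 1825 to 14803 and 16308. CCN1, another matrix protein, rose from 4492 and 4522 to 24585 and 23062. CCN1 and CCN2 are listed with the immediate-early genes too. AXL, a receptor kinase, was called lower with a log2 ratio of -0.77. TAGLN, an actin-binding protein, went from 246 and 288 to 6126 and 5550 and was on neither list. GBP1, an interferon-inducible GTPase, went from 89.7 and 87.2 to 1434 and 1618, and EPPK1, which organises keratin filaments, from 10.8 and 7.72 to 389 and 324.

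Of 16 tested NF-kappaB targets and cytokines, 7 were called higher (43.75%) and 1 lower (6.25%), against 8.56% and 10.9% of all tested genes. PTGS2, the inducible cyclooxygenase, went from 34.5 and 34.2 to 173 and 191 normalised reads and NFKBIZ, a nuclear regulator of NF-kappaB, from 285 and 263 to 1031 and 1019. Of 23 p53 targets, 7 were called higher and 1 lower, with GADD45A at a log2 ratio of 1.73, CDKN1A at 0.54 and FAS, a death receptor of the plasma membrane, at -0.74. Of 18 tested interferon-stimulated genes, none was called higher in the authors' deposited table, none had an unadjusted p under 0.05 upward, and limma on the reads called none higher. The interferon-inducible GBP1, which rose, was not on this list. Of the list, 2 were called lower (11.1%), near the share of all tested genes. Among them IFI6, a membrane protein, went from 237 and 253 to 125 and 113. Among 16 ID and BMP or TGF-beta feedback genes, 6 were called higher, ID4 with the largest ratio of 1.05, and 3 lower, with the secreted BMP antagonist NOG lowest at -0.65.

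**Figure D3:**
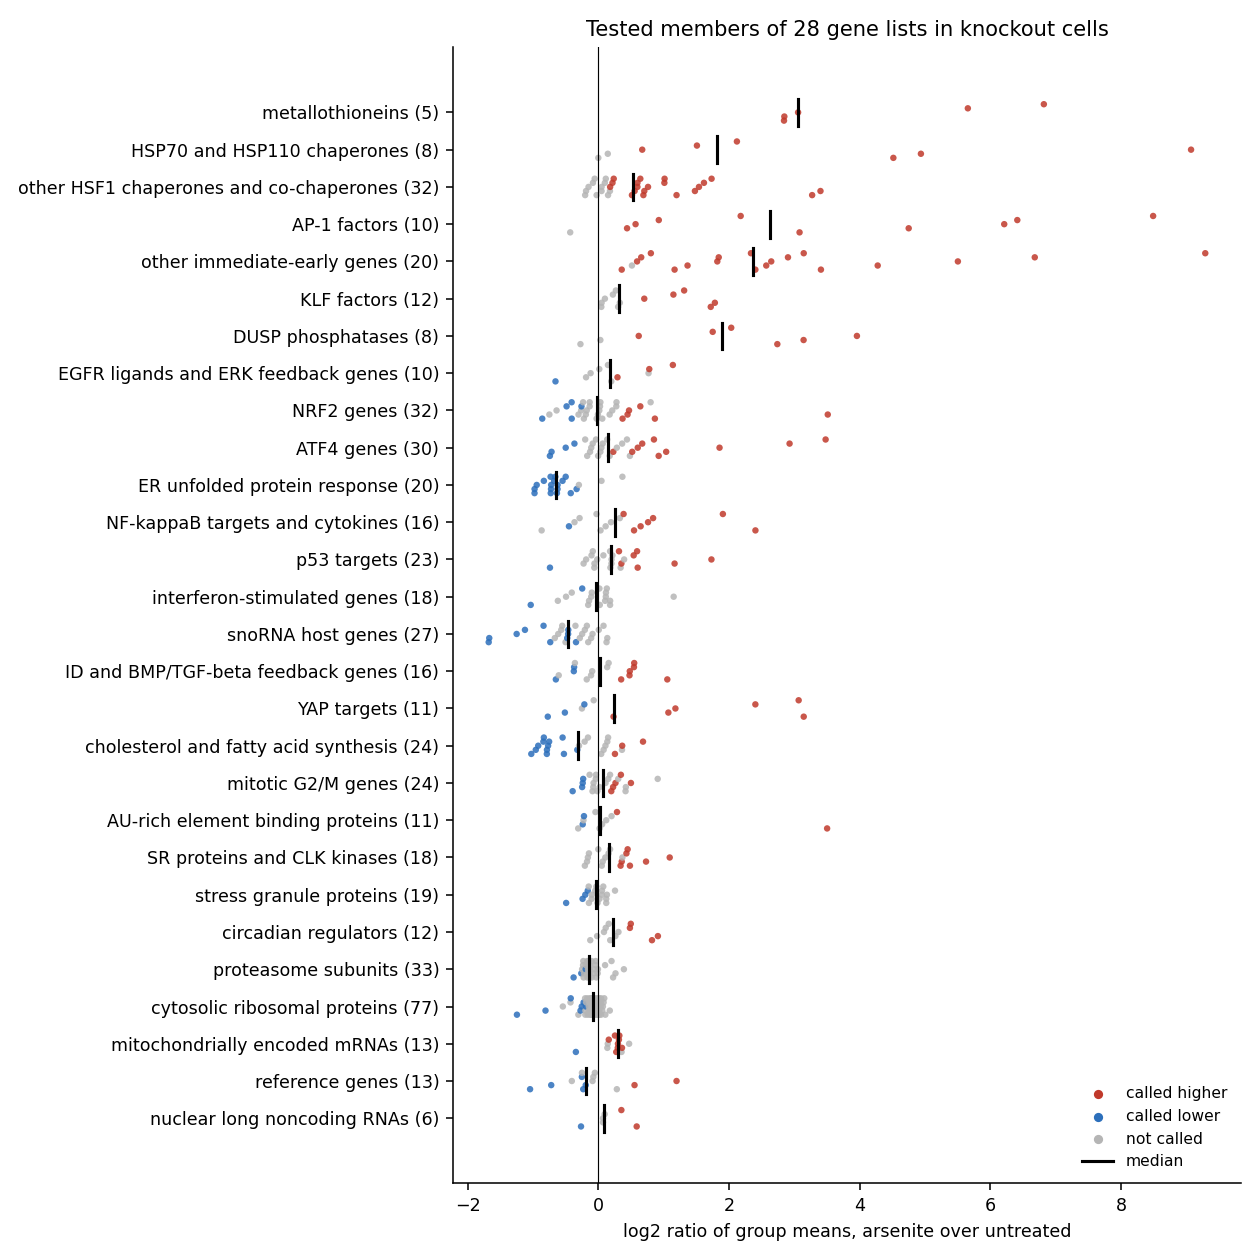
Each point is a tested gene of a list (vertical, with the number tested in brackets), placed by its log2 ratio of group means, arsenite over untreated (horizontal). Colours give the call in the authors' deposited table and black bars the median of each list. The 5 metallothioneins, 9 of 10 AP-1 factors and 19 of 20 other immediate-early genes lie to the right of 0 as called genes, and 17 of 20 genes of the ER list lie to the left.

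Genes of the endoplasmic reticulum (ER) unfolded protein response fell together. The ER is where secreted and membrane proteins are made, and its own chaperones are classic targets of ATF6 and XBP1. Of 21 listed, 20 were tested, none was called higher and 17 were called lower, with a median log2 ratio of -0.65. At an unadjusted p under 0.05, 1 was higher and 18 lower, and limma gave the same 2 counts. CALR, a calcium-binding lectin chaperone, fell from 19593 and 19440 to 10199 and 9620 normalised reads. CANX, its membrane relative, fell from 11630 and 11819 to 5891 and 6292. PDIA6, a disulfide isomerase, fell from 9313 and 8991 to 4552 and 4746. The arsenite mean stood at 50.8% of the untreated mean in both CALR and PDIA6. HYOU1, an ER HSP110, stood at 60.5% and HSPA5, the ER HSP70 also called BiP, at 79.3%. XBP1 had a log2 ratio of -0.50. HERPUD1 (0.05), SYVN1 (-0.30) and the sensor ERN1 (0.37) were not called.

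The 15 lowest fold changes, taken among called genes whose base mean reached 100, were read gene by gene. KDELR2 and KDELR3 are receptors that return ER proteins from the Golgi. KDELR2 fell from 6017 and 5618 to 2654 and 2658 normalised reads and KDELR3 from 339 and 301 to 141 and 118. TMX1, a disulfide isomerase of the ER membrane, went from 1521 and 1507 to 637 and 706. PGRMC1, a haem-binding membrane protein, fell from 2151 and 2034 to 936 and 944. RTN3, which shapes ER tubules, fell from 2866 and 2702 to 1309 and 1292. PPT1 (5071 and 4804 to 2145 and 2334), GGH (1681 and 1624 to 722 and 787) and FUCA1 encode lysosomal enzymes, and LAPTM4B a lysosomal membrane protein. SPP1, or osteopontin, a secreted bone protein, fell from 694 and 618 to 262 and 273. The pseudogene RCN1P2, the antisense RNA C10orf95-AS1 and RPL36A, which has near-identical copies, are also among them, and their reads are uncertain.

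Families picked by symbol after the values were seen, and so only described here, were then counted. Over 11 families whose members are mostly made at the ER, 203 of 457 tested genes were called lower (44.4%) and 7 higher (1.53%), with a median log2 ratio of -0.41. Over 8 families whose proteins are mostly made in the cytosol, 21 of 721 were called lower (2.91%) and 99 higher (13.7%), with a median of 0.15. ZNF zinc-finger genes made up 400 of the 721 and 79 of the 99. The other 7 families had 18 of 321 called lower (5.61%) and 20 higher (6.23%), with a median of -0.08, and 5 of the 7 had a median below 0. These shares stand beside 10.9% and 8.56% of all tested genes. All 13 protein disulfide isomerases, all 3 KDEL receptors, 9 of 10 oligosaccharyltransferase subunits, 8 of 9 p24 cargo receptors, 14 of 17 translocon and signal peptidase genes and 9 of 12 cathepsins were called lower. For instance, RPN1, a subunit that adds N-glycans, fell from 5484 and 5328 to 2792 and 2666 normalised reads. SSR1 of the translocon fell from 2725 and 2539 to 1242 and 1277. TMED2, a p24 receptor, fell from 2763 and 2382 to 1175 and 1276, and CTSB, a lysosomal protease, fell from 5349 and 5292 to 2659 and 2796.

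Solute carriers differed by family. Of carriers outside the SLC25 family, which sit in the plasma membrane and endomembranes, 68 of 164 were called lower and 4 higher. Of SLC25 carriers, which go to mitochondria, 1 of 41 was called lower and 2 higher. Similarly, 58 of 164 TMEM genes, 8 of 13 tetraspanins and 7 of 25 integrins were called lower, against 0 of 48 RAB GTPases, 0 of 18 coat proteins of COPI and COPII, 6 of 76 mitochondrial ribosomal proteins and 4 of 45 complex I genes. Translation initiation factors, with 7 of 54 called lower (12.96%) and 5 higher (9.26%), lay near the 10.9% and 8.56% of all tested genes. The COPI and COPII coats work on the same membranes but are cytosolic proteins. Collagen chains, which are secreted, had 6 of 27 called lower (22.2%), none higher and a median of 0.04. Of the ZNF genes 3 were called lower and the median was 0.33, and 11 of 39 kinesins were called higher with none lower. ZNF genes share similar sequences and often low levels.

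**Figure D4:**
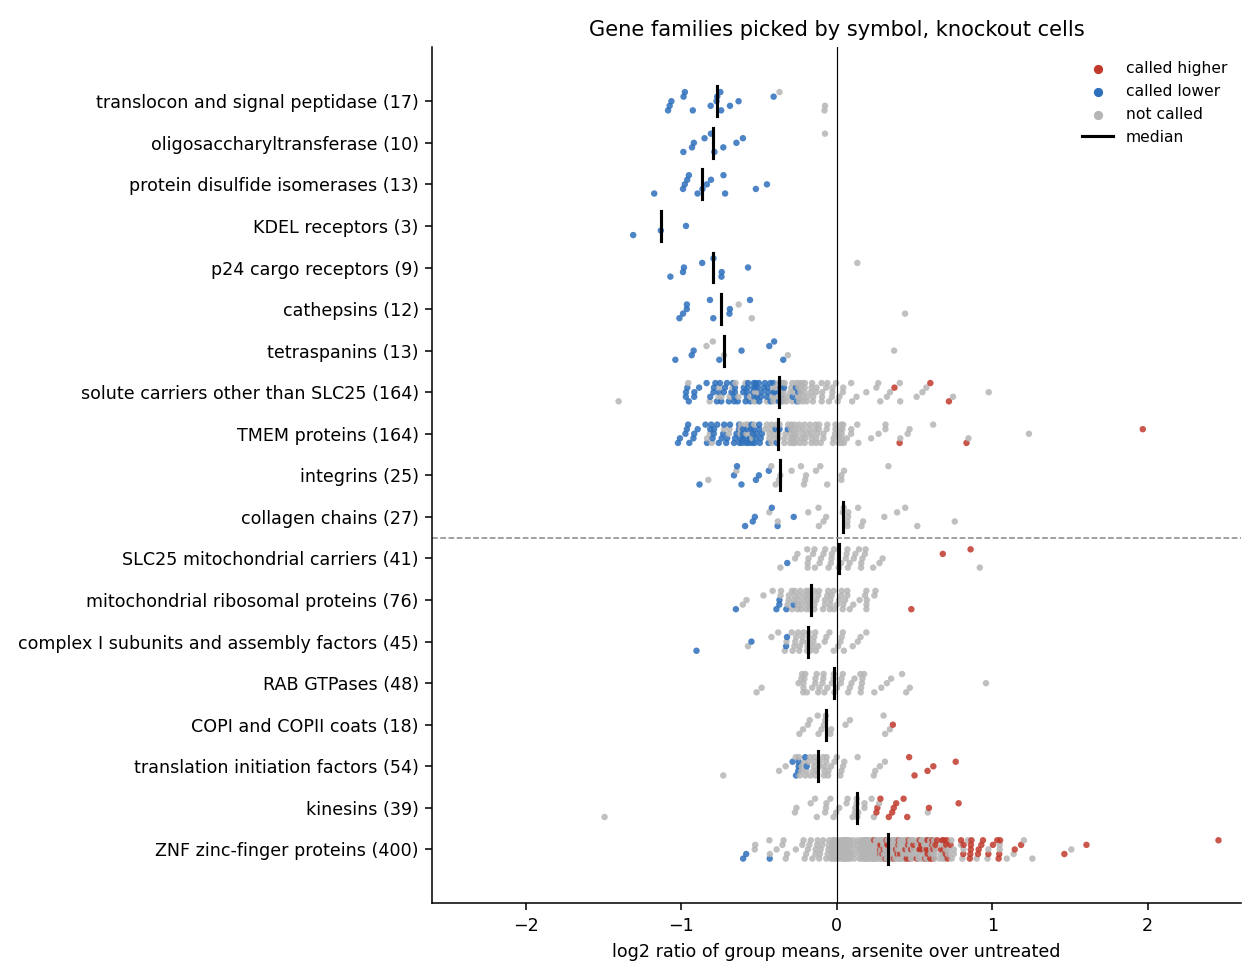
Each point is a tested gene of a family picked by symbol (vertical, number tested in brackets), placed by its log2 ratio of group means, arsenite over untreated (horizontal). The 11 families above the dashed line are mostly made at the ER and the 8 below mostly in the cytosol. Black bars are medians, 1 gene lies outside the plotted range, and the medians of the first 7 families lie between -0.72 and -1.13.

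Enzymes of cholesterol and fatty acid synthesis fell in 12 of 24 tested genes (50%) and rose in 3 (12.5%), with a median log2 ratio of -0.31. Over all tested genes, 10.9% were called lower and 8.56% higher. SCD, a fatty acid desaturase, fell from 26443 and 26548 to 12920 and 13077 normalised reads. SQLE, squalene epoxidase, fell from 3390 and 3216 to 1881 and 1992, and DHCR7 from 2938 and 2835 to 1716 and 1706. Among those called higher were HMGCS1, an early enzyme of the pathway, from 2137 and 2066 to 3434 and 3312, and FASN, fatty acid synthase (log2 ratio 0.25).

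Hosts of small nucleolar RNAs, whose spliced transcripts are usually removed by translation-coupled decay, fell in 10 of 27 tested genes and rose in none. The median log2 ratio was -0.46, and 37.0% were called lower, against 10.9% of all tested genes. At an unadjusted p under 0.05, none was higher and 13 lower, and limma called none higher and 14 lower. Another 4 listed symbols matched no row. SNHG3 fell from 1016 and 912 to 299 and 307 normalised reads, and SNHG4 from 499 and 429 to 163 and 127. These were the lowest values of the table among called genes whose base mean reached 100, with log2 fold changes of -1.60 (SE 0.13) and -1.54 (SE 0.18) in the authors' deposited table. SNHG5 stood at 45.9%, ZFAS1 at 60.0% and GAS5 at 72.6% of the untreated mean. SNHG3 and SNHG4 overlap other genes, so part of their reads may not be theirs.

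Ribosomal protein and proteasome genes were called lower about as often as all tested genes (10.9%), but none was called higher, against 8.56% of all tested genes. Of 77 cytosolic ribosomal protein genes, 7 were called lower (9.09%) and none higher, with a median log2 ratio of -0.09. At an unadjusted p under 0.05, 1 was higher and 15 lower, and limma called 1 higher and 11 lower. RPL36A, which has near-identical copies, stood at -1.25, RPL22 at -0.42 and RPL7 at -0.19. Of 33 proteasome subunits, 3 were called lower (9.09%) and none higher, PSMA4 most at -0.38. At an unadjusted p under 0.05, 1 was higher and 7 lower, and limma called 1 higher and 6 lower. Of 19 genes of stress granule proteins none was called higher and 4 were called lower. Among them were DDX3X, an RNA helicase, from 3138 and 3271 to 2140 and 2411 normalised reads, G3BP1 and its partner CAPRIN1 (-0.20). In limma fits of the reads that left out 1 library, the call of G3BP1 was lost without untreated library b, and that of CAPRIN1 without any 1 of 3 of the 4 libraries, while DDX3X was called each time.

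Of 18 splicing regulators, SR proteins and CLK kinases, 7 were called higher (38.9%) and none lower. Over all tested genes, 8.56% were called higher and 10.9% lower. CLK1, a kinase of SR proteins, went from 694 and 687 to 1490 and 1452 normalised reads and TRA2B from 2206 and 2015 to 3439 and 3555. Nuclear long noncoding RNAs had 2 of 6 tested called higher (33.3%) and 1 lower (16.7%), with a median log2 ratio of 0.08. Those called higher were NEAT1, a scaffold of paraspeckles, from 7832 and 6718 to 10580 and 11255, and MALAT1, of nuclear speckles. Of 12 circadian regulators 4 were called higher (33.3%), with PER1 at 0.91 and PER2 at 0.82. Of 24 mitotic genes 5 were called higher (20.8%), CENPE most at 0.50, and 4 lower (16.7%). Mitochondrially encoded mRNAs were called higher in 8 of 13 and lower in MT-ND6, the mRNA of the other strand. MT-CO1 went from 235397 and 227540 to 283916 and 291512, and all mitochondrial transcripts together from 9.86% and 9.37% to 11.7% and 12.1% of gene reads. Leaving out untreated library b ended the calls of MT-CO1, MT-CO2, MT-CYB and MT-ATP6 in limma, and leaving out untreated library a that of MT-CO1.

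Genes often used as references were not steady. Of 13 tested, 2 were called higher and 5 lower. ACTB went from 48488 and 49650 to 74121 and 69832 normalised reads. B2M, the light chain of MHC class I and an ER client, fell from 4854 and 4692 to 2205 and 2418, and GUSB, a lysosomal enzyme, from 1426 and 1335 to 890 and 783. GAPDH stood at 85.1% of its untreated mean. PPIA (-0.05), RPLP0 (-0.09), TBP (0.28), HPRT1 (-0.25) and SDHA (-0.41) were not called.

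The 218 genes called higher with a deposited log2 fold change of at least 1, 1.41% of those tested, included 177 with a symbol and a span in RefSeq. Their median span was 13.1 kb (quartiles 3.93 and 28.8), against 46.0 kb for 1055 genes called higher by less, 28.9 kb for 1652 called lower and 28.8 kb for 11219 not called. Long noncoding RNAs made up 12.4% of the first class, 4.08% of the second, 1.51% of genes called lower and 8.29% of genes not called. Genes next to these raised genes were looked at as well. Of 21 tested genes that start on the same strand within 10 kb downstream, 4 were called higher and 1 lower, with a median log2 ratio of 0.24, against 111 and 152 of 1438 such pairs in all, with a median of 0.00. Of the 4, HSPA1B, downstream of HSPA1A, is itself a listed HSP70 gene and a near-identical copy, and whether reads run past the ends of raised genes was not tested.

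The response of knockout cells was then set against those of the rescues, each relative to its own untreated libraries. In the authors' deposited tables, 8.18% of tested genes were called higher and 12.2% lower in wild-type rescue, and 2.43% higher and 6.14% lower in NTF2-deletion rescue. The difference of deposited log2 fold changes, rescue minus knockout, was tested gene by gene. With wild-type rescue the fold change was lower than in knockout in 420 of 15648 genes (2.68%) and higher in 285 (1.82%). With NTF2-deletion rescue it was lower in 475 of 15442 (3.08%) and higher in 624 (4.04%). A lower fold change can be a smaller rise or a fall. Of 1296 genes called higher in knockout cells and tested for the difference, 373 had a lower fold change in wild-type rescue and 1 a higher one, and 432 a lower and 1 a higher one in NTF2-deletion rescue. Of the genes called lower, 271 of 1678 had a higher fold change in wild-type rescue and 3 a lower one, and 618 of 1680 a higher and 2 a lower one in NTF2-deletion rescue. No mock-transfected group was used here, so transfection and G3BP1 cannot be told apart in these differences. Some genes also differed widely before arsenite. On 1 scale for all 12 libraries, untreated CD44 stood at 1009 and 962 in knockout cells. It stood at 10062 and 10014 in wild-type and 9703 and 9128 in NTF2-deletion rescue. COL3A1 went the other way, with 20228 and 20866, 953 and 930, and 991 and 1015 in that order. A difference of clone, passage or batch between the cells therefore cannot be told apart either. Having been called in knockout cells also favours a larger value there.

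Of 10 AP-1 factors tested, 7 had a lower fold change in each rescue than in knockout and none a higher one. Of 20 other immediate-early genes, 17 had a lower fold change in each rescue and none a higher one. Of these genes, 9 of 20 tested were called higher and 4 lower in wild-type rescue, and 5 of 16 higher and 4 lower in NTF2-deletion rescue. Their median log2 ratios were 2.37 in knockout, 0.23 with wild-type and 0.14 with NTF2-deletion rescue. On 1 scale for all 12 libraries, ATF3 stood at 206 and 242 without and 16003 and 16811 with arsenite in knockout cells. In wild-type rescue it was already at 777 and 712 and reached 1572 and 1634, and in NTF2-deletion rescue it went from 543 and 512 to 1032 and 1123. Both the higher start and the lower end narrowed the response. FOSB ended at 7889 and 8934 in knockout cells, 715 and 724 with wild-type and 468 and 490 with NTF2-deletion rescue. CCN2 rose in knockout cells but had log2 ratios of -0.22 and -0.21 in the rescues, where it started at 8895 and 9496 and at 9874 and 9528, and CCN1 had -0.91 and -0.96. TAGLN had log2 ratios of 4.45 in knockout, 0.72 with wild-type and 0.41 with NTF2-deletion rescue.

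Metallothioneins started higher in the rescues. All 5 tested metallothionein list genes had a lower fold change in each rescue and were called higher there too. MT1X reached 3435 and 3493 in knockout cells, 2846 and 2848 with wild-type and 2646 and 2536 with NTF2-deletion rescue. MT2A ended higher in the rescues, at 23061 and 21616 and at 22687 and 22153, than in knockout cells, at 15390 and 13916. It had started at 13099 and 13061 in wild-type rescue against 2004 and 2112 in knockout. HMOX1 likewise ended at 5926 and 5815 in wild-type rescue against 2137 and 2078 in knockout cells. Of 32 other HSF1 genes, 13 had a lower fold change with wild-type and 14 with NTF2-deletion G3BP1, and none a higher one.

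HSPA6 had a higher fold change in each rescue than in knockout by the fold changes of the authors' deposited tables (differences of 2.88 and 1.09). Its group means gave the opposite order, with log2 ratios of 9.07 in knockout, 5.01 with wild-type and 4.25 with NTF2-deletion rescue. On the common scale HSPA6 reached 1623 and 992 in knockout cells, 809 and 737 in wild-type rescue and 329 in both NTF2-deletion libraries. The deposited direction for HSPA6 thus does not hold on the reads.

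The 20 tested genes of the ER list had median log2 ratios of -0.65 in knockout, -0.37 with wild-type and -0.20 with NTF2-deletion rescue. Of them, 7 had a higher fold change with wild-type and 15 with NTF2-deletion G3BP1, and none a lower one. CALR ended at 11287 and 10529 in knockout cells, 12519 and 12721 with wild-type and 13698 and 13616 with NTF2-deletion rescue. SPP1 fell in knockout cells and was not called in NTF2-deletion rescue, where it stood at 425.3 and 375.4 without and 394 and 385 with arsenite. The difference was 1.19 (SE 0.18, adjusted p 9.55e-09 in the difference test with Benjamini-Hochberg adjustment). Of 19 genes of stress granule proteins, 2 had a higher fold change in each rescue and none a lower one. DDX3X fell less there. G3BP1 was called higher in both, with log2 ratios of 0.37 and 0.23. The added G3BP1 mRNA cannot be told apart from the cell's own in the rescues.

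**Figure D5:**
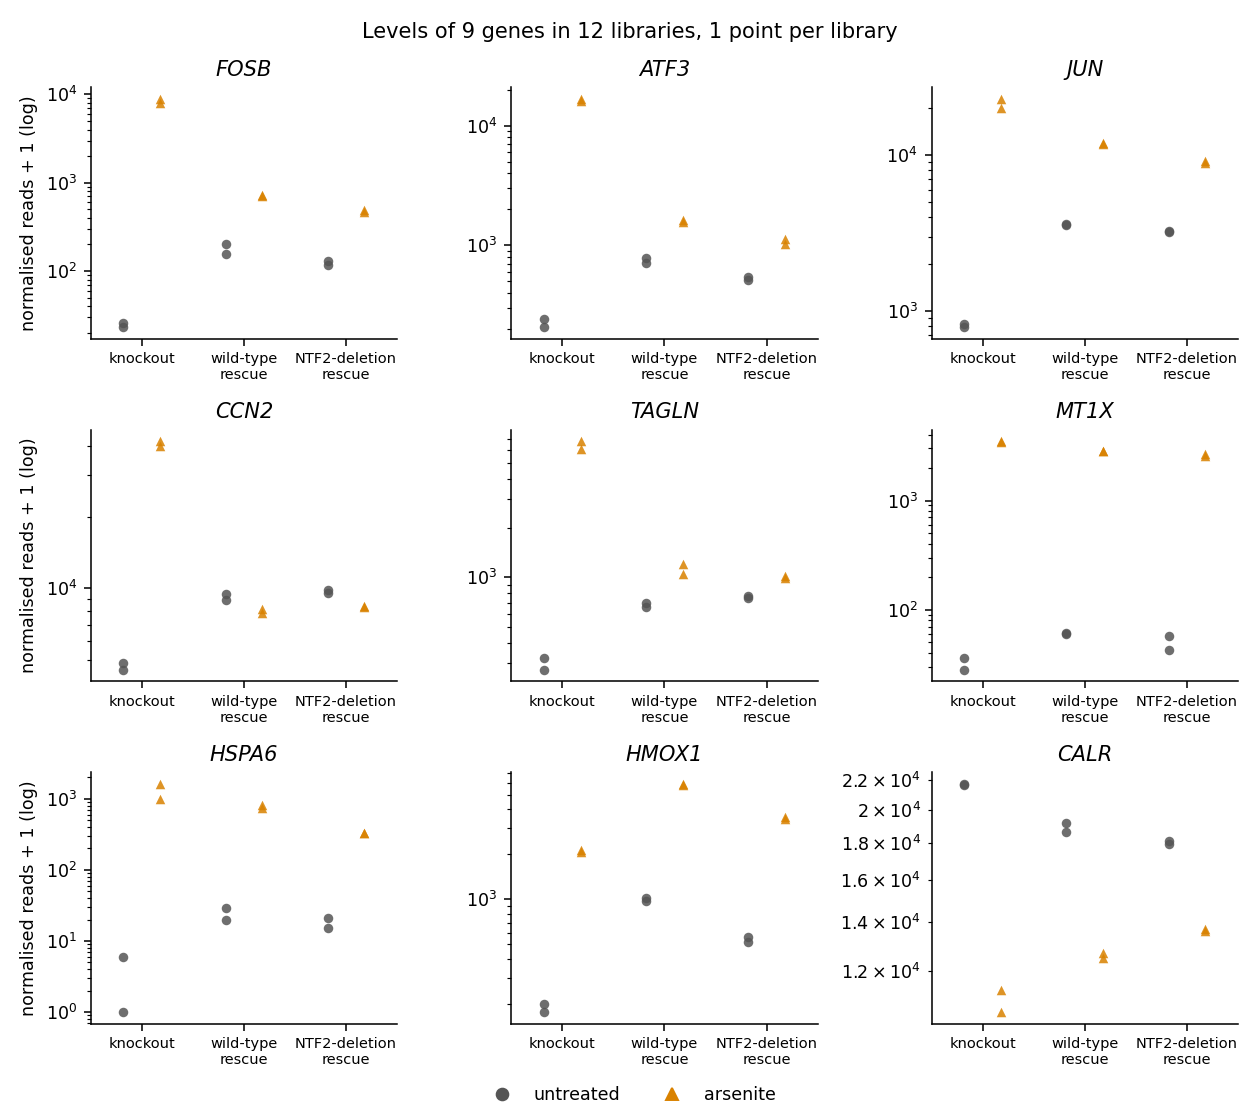
Normalised reads plus 1 on a log axis (vertical), scaled together over 12 libraries, for 9 genes in knockout cells, wild-type rescue and NTF2-deletion rescue (horizontal), with grey circles for untreated and orange triangles for arsenite libraries, 1 point per library. FOSB, ATF3, JUN, CCN2 and TAGLN start lowest and end highest in knockout cells, while MT1X ends at similar levels in each.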

How the data were processed

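RNA-seq libraries of poly-A selected RNA from U2OS cells were made with a directional kit, per the labels' protocols. The submitters' processing notes name STAR and DESeq2 2.11.40.6, and the genome build, annotation and strand setting of counting are not given in the sources used here. The authors deposited, per the file headers, a base mean for each gene (a signal: the mean of counts divided by size factors), a log2 fold change with its standard error, a Wald statistic (a score), and a p-value with its adjusted p-value. The deposited log2 fold changes can lie far closer to 0 than the ratio of group means, and not only where reads are few. MT1G in NTF2-deletion rescue, with a base mean of 648, had a deposited value of 1.63 against a log2 ratio of 4.42. The differences between backgrounds rest on deposited values, so gaps of this kind carry over to them. Rows that name no gene (4 counting summaries) were left out.

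Whole reads of each library were recovered from the base means of 7 tables. They were exact for all 61541 genes, but the libraries carry no replicate number, so they are named a and b. Normalised reads are these reads divided by the table's size factors. Main calls use the authors' adjusted p-value under 0.05. Differences between backgrounds divide the difference of deposited log2 fold changes by the root of their summed squared standard errors (two-sided normal test, Benjamini-Hochberg over genes whose base mean reached 10 in each table). Limma 3.58.1 on log2 normalised reads plus 1 was the alternative. The scripts were tested on simulated data.

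Genes and lists were chosen with earlier results of these data known. Genes with a call are named by a rule: G3BP1 and G3BP2, the 15 highest and 15 lowest fold changes where the base mean reached 100, the 4 members of each list with the largest Wald statistic, the 4 highest and 4 lowest differences in each rescue where both base means reached 100, and genes whose promoters are printed. Other members are named as examples, chosen after their values were seen. Promoters and gene spans come from RefSeq (GRCh38.p14), matched by symbol. RNA immunoprecipitation samples and the other experiment of the series were not analysed here, and some members of the lists are not reported here by name.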

Additional observations from a re-analysis of the deposited data

Results flagged for a closer look

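The 16 values here were flagged because a test of the difference itself separated the arsenite response of a rescue from that of knockout cells. Each is the deposited log2 fold change in the rescue minus that in knockout cells, so a negative value is a smaller rise or a deeper fall in the rescue. The genes are the 4 highest and 4 lowest differences in each rescue among those with a base mean of 100 or more in both tables. NR4A3 (-4.75 and -5.02) and EGR4 (-4.58 and -5.68) also had low differences in wild-type and NTF2-deletion rescue but fell short of that base mean in the rescues. In wild-type rescue the lowest were FOSB (-5.84), ATF3 (-5.03), FOS (-3.72) and TAGLN (-3.66). In NTF2-deletion rescue the same 4 genes were lowest, with FOSB at -6.26, ATF3 at -5.19, FOS at -4.44 and TAGLN at -3.98. Both sets of differences share the knockout libraries.

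The highest differences were smaller. In wild-type rescue they were HSPA6 (2.88), FAM172A (0.85), the butyrophilin BTN3A2 (0.78) and the pseudogene RCN1P2 (0.76). In NTF2-deletion rescue they were SPP1 (1.19), HSPA6 (1.09), the lectin-like receptor CLEC2B (0.94) and the receptor KDELR3 (0.92). For HSPA6 the direction is not that of its reads.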

How the results depend on the processing

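The 1326 genes called higher and 1685 called lower became 218 and 51 with a log2 fold change of at least 1, 435 and 721 with Wald statistics divided by their robust spread of 1.6, 2518 and 2713 in limma on the reads, 2539 and 2738 with a pseudocount of 5, and 2337 and 2913 with scaling by total gene reads, which moved the median of all genes by -0.018. Limma kept 1325 of the 1326 and 1684 of the 1685. Leaving out each library in turn in limma gave 1754 to 2139 higher and 1991 to 2278 lower, where the lone library was assumed to vary like the others. The fold change was higher in wild-type rescue than in knockout in 671 genes and lower in 726 by limma's interaction, against 285 and 420, and in 2 and 137 with a difference of at least 1. In NTF2-deletion rescue, 624 and 475 became 1033 and 843, and 7 and 158. The difference for HSPA6 reversed, to -4.06 from group means and -3.97 in limma in wild-type rescue, and to -4.82 and -4.76 in NTF2-deletion rescue. Its deposited fold change in knockout cells is 8.15 below the ratio of its reads. Of 133 named genes, 127 were called, 34 lost the call under at least 1 setting and none reversed in the knockout comparison. The cause of these shifts was not tested. No paired analysis was possible because the recovered libraries carry no replicate numbers. With 2 libraries a group, small changes of genes with few reads were not detectable at this depth.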

Other observations

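Genes of the actin cytoskeleton were listed after their values were seen. Of 32 tested, 18 were called higher (56.25%) and 3 lower (9.38%), against 8.56% and 10.9% of all tested genes. FLNA and TPM3 were among those called lower. Median log2 ratios were 0.49 in knockout, 0.00 with wild-type and -0.05 with NTF2-deletion rescue. CNN1, which binds actin in smooth muscle, went from 483 and 569 to 3673 and 3087 normalised reads, and LIMA1, which bundles actin filaments, from 771 and 757 to 2901 and 3055. TPM4, a tropomyosin, went from 2467 and 2507 to 5711 and 5846, and ACTG1 from 11849 and 12589 to 25125 and 23570. In each of these the arsenite libraries lay above the untreated ones, as they did in every gene called higher. The fold change was lower than in knockout in 16 of 30 genes tested for the difference in each rescue. Over all genes tested this share was 2.68% with wild-type and 3.08% with NTF2-deletion rescue. Some actin genes also differed before arsenite. On 1 scale for all 12 libraries, untreated TPM1 stood at 16259 and 16358 in knockout cells. It stood at 2146 and 2312 in wild-type and 2551 and 2628 in NTF2-deletion rescue. FHL2 stood lower in knockout cells, at 446 and 463, against 1657 and 1664 and 1903 and 1864.

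Small RNA genes inside longer genes were also looked at after the values were seen. Of 22 tested, 5 were called higher and none lower, against 8.56% and 10.9% of all tested genes. Inside hosts called higher, 4 of 6 were called higher, and inside other hosts 0 of 14. SNORD14E, in an intron of HSPA8, had 2 and 1 whole reads in untreated and 56 and 73 in arsenite libraries. MIR616, inside DDIT3, had 3 and 0, then 48 and 42. Both had so few untreated reads that their arsenite reads brought them among the tested genes. The 4 of 6 therefore favours raised genes and is only described. Poly-A selected libraries do not capture mature small RNAs well, and reads of these small RNA genes cannot be told apart from unspliced RNA of the hosts. SNORD3A, with no tested host, went from 277 and 366 to 593 and 725 normalised reads.

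Some genes had no read in either untreated library and at least 10 in both arsenite libraries. The noncoding RNA LINC01345 had 106 and 100 reads, at least 61.9-fold higher against a floor of 3 counts over both untreated libraries together, and the zinc-finger gene ZFP57 had 22 and 30. CCDC190 had 20 in each. ZFP57 and CCDC190 had no adjusted p in the authors' deposited table, so neither was called.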
